A study of Rattus norvegicus with 4 samples.

Results

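The genes described here encode the transport machinery and the skeleton of the cilium: intraflagellar transport proteins (Ift), subunits of the BBSome (Bbs and Ttc8), transition zone proteins (Tctn), tektins (Tekt), radial spoke proteins (Rsph, Ropn1l), cilia and flagella associated proteins (Cfap, Spef2, Ak7), sperm associated antigens and outer dense fibre proteins (Spag, Odf), and the transcription factors Foxj1 and Rfx. They were chosen by symbol from the gene probes of a single-colour rat whole-genome oligonucleotide array. The array named 12323 genes, and 60 of them, on 79 probes, belonged to these families. Arl13b, Cfap genes other than those given below and several Rsph genes had no probe named here. The choice used no measured value, but it was made with earlier results of the same arrays known.

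The tissue was the rat crista ampullaris, the sensory patch of each semicircular canal, from which 2 layers were taken by laser capture according to morphology. The supporting cell layer, called the supporting layer here (2 arrays), was the deeper one: supporting cell bodies on the basal lamina, taken in the second pass. The hair cell layer, called the hair layer here (2 arrays), was the superficial one and was taken first. It held hair cells of both types together with supporting cell cytoplasm from the spaces between them. The strain, age and sex of the rats are not given in the sources used here, nor is whether replicate arrays stand for separate animals, so p-values measure the spread between these arrays, which may be technical. Because the superficial capture also took supporting cell cytoplasm, a difference between layers is not a difference between 2 pure cell types, and fewer cells of a type cannot be told apart from less RNA per cell.

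A cilium is a membrane protrusion built on a ring of microtubule doublets that grows from a basal body. Intraflagellar transport carries building material out and back along the doublets, the BBSome moves membrane proteins, and the transition zone gates the base. Motile cilia add a central pair, radial spokes and dynein arms, and their genes are switched on by FOXJ1 and RFX factors. Vestibular hair cells carry a single long kinocilium beside the stereocilia, with an axoneme much like that of motile cilia, while supporting cells carry a primary cilium.

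The scanner software detected 13474 and 13430 gene probes (39.8% and 39.7%) on supporting layer arrays 1 and 2, and 16511 and 15420 (48.8% and 45.6%) on hair layer arrays 1 and 2. The median raw intensity was 12.1 and 11.9 in the supporting layer and 25.1 and 16.9 in the hair layer, so intensities were quantile-normalized between arrays before the layers were compared. All intensities below are normalized ones unless called raw. A change is the log2 intensity of the supporting layer minus that of the hair layer, with its limma standard error (2 arrays per layer unless stated), and called means an adjusted p under 0.05. With 2 arrays a layer, the precision of each value is limited. Of the hair cell markers, 12 of 14 tested were called higher in the hair layer, and their summed intensity was 3560 and 3420 in the supporting layer and 9250 and 9830 in the hair layer. Of 16 tested supporting cell markers, 6 were called higher in the supporting layer and 7 higher in the hair layer. Of the markers of respiratory or ependymal ciliated epithelium, 4 of 7 had a named probe. Sftpa1 and Ttr were detected on no array, and the 2 that were tested, Tff3 and Bpifa1, were higher in the supporting layer, with a summed intensity of 132 and 130 there and 46.2 and 52.6 in the hair layer. Vessel and stroma markers also moved with the layer. Of 9 tested endothelial and pericyte markers 7 were called higher in the supporting layer and 1 higher in the hair layer, with a median change of 3.22. Their summed intensity was 3020 and 1570 in the supporting layer, where a failed Cldn5 spot is missing from the second sum, and 919 and 976 in the hair layer. Of 6 tested connective tissue markers 3 were called higher in the supporting layer and 1 in the hair layer, with sums of 2300 and 2350 in the supporting layer and 992 and 1010 in the hair layer. The marker lists of neurons (3 and 2 of 5 tested called higher in the supporting and hair layers), Schwann cells and glia (2 and 2 of 5), blood and immune cells (2 and 1 of 5) and dark cells, transitional cells and melanocytes (2 and 1 of 4) had calls in both directions. The part of hair cell, vessel and stroma content in the results below was not tested.

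Most ciliary genes were brighter in the hair layer. Of the 49 member genes detected on at least 2 arrays and so tested, 7 (14.3%) were called higher in the supporting layer and 29 (59.2%) higher in the hair layer, while 13 did not pass the test. Over all 7768 tested genes, 28.2% were called higher in the supporting layer and 37.2% higher in the hair layer, so that 65.4% were called in all. The median change was -0.75 over the members and -0.10 over all tested genes, and it stayed at -0.75 with the 5 members undetected in a layer held at their lower limit of fold (-0.05 for all genes). Both supporting layer arrays lay above both hair layer arrays for 10 members, both lay below for 35, and the layers overlapped for 4. Among the 35, Rsph1 is counted on hair layer array 2 alone, because its spot on array 1 failed. Over all tested genes the shares were 40.3% above and 48.9% below. Since a gene could pass the filter through 1 layer alone, the same was counted for genes detected on all 4 arrays: 6 of 38 members were called higher in the supporting layer and 24 higher in the hair layer, beside 31.5% and 34.1% of the 5750 such genes. These counts describe the families and are not a test of them against other genes.

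**Figure D1:**
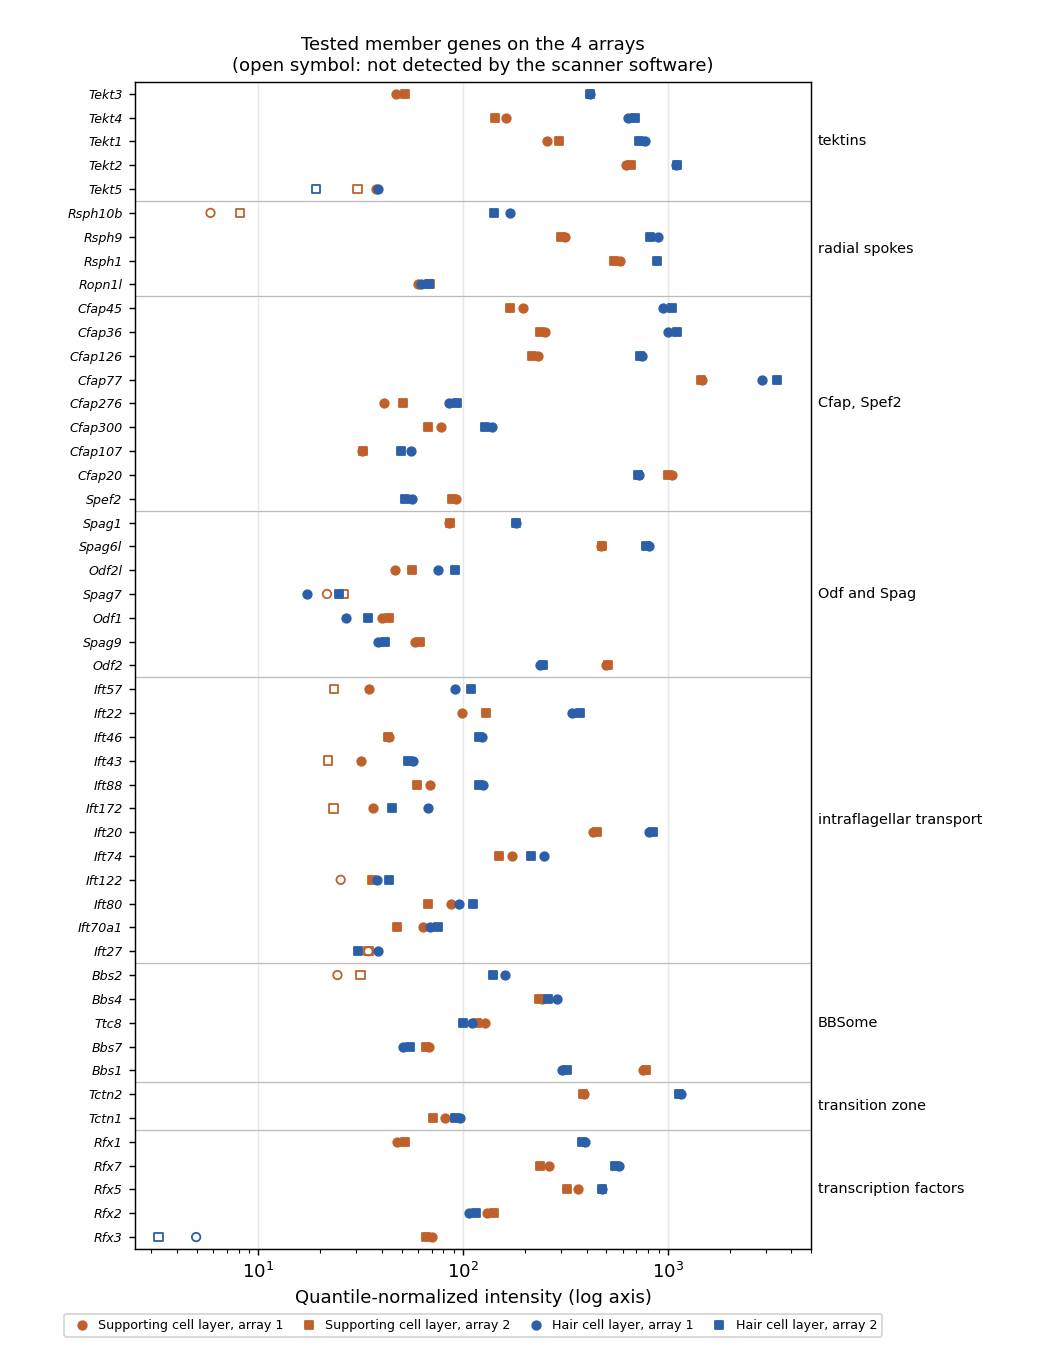
Normalized intensity (log axis) of each of the 49 tested member genes on the 2 supporting layer arrays and the 2 hair layer arrays, grouped by family. Open symbols were not detected by the scanner software. For 35 genes both hair layer arrays lie to the right of both supporting layer arrays, with Rsph1 counted on hair layer array 2 alone. The same held for 48.9% of all tested genes.

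The calls rest on small groups and on the scaling. Without hair layer replicate 1 the median change of the members was -0.73, and without hair layer replicate 2 it was -0.78. Over all tested genes it was -0.11 in both cases. With either of these arrays left out, calls were fewer over all tested genes as well as over the members. Leaving out 1 hair layer array ended the calls of Bbs7, Cfap20, Cfap276, Cfap300, Ift43, Ift57, Ift74, Ift88, Odf2l, Rfx5 or Spag9, and leaving out 1 supporting layer array ended those of Bbs7, Ift74, Odf2l, Rfx5 or Rsph1. With the scanner software's own scaling, which divides by each array's median, 3 members were called higher in the supporting layer and 15 higher in the hair layer. Over all 7768 tested genes the counts were 1053 and 1606 with that scaling, against 2192 and 2889 with quantile normalization. Of the 36 called members, 14 kept their call under each alternative that gave them a value: Rfx3 in the supporting layer, and Bbs2, Cfap126, Cfap36, Cfap45, Ift22, Ift46, Rfx1, Rsph10b, Rsph9, Tctn2, Tekt1, Tekt3 and Tekt4 in the hair layer.

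The raw intensities, with no scaling between arrays, were higher in the hair layer for most genes of the array, so a raw difference in that direction was common. Both raw hair layer values lay above both raw supporting layer values for 43 of the 49 members and for 73.8% of all tested genes. The 43 included all 29 members called higher in the hair layer. That match was likely beforehand, given how the 29 were picked and the higher raw level of that layer. Rsph1 is counted there on 1 raw hair layer value, the other being missing. Of the 7 members called higher in the supporting layer, Bbs1, Odf2 and Rfx3 had both raw supporting layer values above both raw hair layer values, a pattern found in 15.2% of all tested genes. For the other 4 the raw values overlapped (Spef2, Spag9) or ran the other way (Bbs7, Cfap20). Without scaling the changes of Spag9, Bbs7 and Cfap20 reversed, so their direction follows from the scaling. Spef2 kept its sign without scaling, with a change of 0.09, but lost its call. Odf2 also kept its sign and lost its call without scaling.

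The transcription factors of the Rfx family, whose winged helix binds the X-box of ciliary gene promoters, went in both directions. Rfx1 read 47.6 and 52.0 on the supporting layer arrays, against 391 and 380 on the hair layer arrays. The layers were far apart, with a change of -2.95 ± 0.09 (adjusted p = 0.00117). Rfx3, which in mice is needed to form cilia, did the opposite. It read 70.1 and 66.1 in the supporting layer and was undetected in the hair layer, at 4.96 and 3.25. Its fold was at least 4.25 toward the supporting layer (adjusted p = 0.00211), where both of its raw values, 55.0 and 51.1, also lay above the hair layer's 6.11 and 3.31. Rfx2, a partner of Rfx3 in ciliary gene control, read 131 and 141 in the supporting layer and 107 and 116 in the hair layer, and its change of 0.29 ± 0.09 did not pass the test (adjusted p = 0.0617).

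Rfx5, known as a regulator of MHC class II genes and not as a ciliary factor, read 362 and 321 in the supporting layer and 477 and 477 in the hair layer (change -0.48 ± 0.09, adjusted p = 0.0212). Rfx7 had 3 tested probes that disagreed. Its brightest gave 261 and 236 in the supporting layer and 574 and 550 in the hair layer (change -1.18 ± 0.09, adjusted p = 0.00308). A second probe had a change of 0.36 ± 0.08 (adjusted p = 0.0318), and the third did not pass at 0.86 ± 0.60, with 1 hair layer spot left out as contaminated, so no direction is given for this gene, although its brightest probe counts among the 29. Foxj1, the master regulator of motile cilia, was detected on no array: its probe read 17.3 and 6.93 in the supporting layer and 9.43 and 3.96 in the hair layer. An undetected signal does not show that the gene was silent.

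Because X-boxes are the sites that Rfx proteins bind, the RefSeq promoters of the members (GRCr8, 250 bases before to 50 bases after the annotated start) were searched on both strands for the loose X-box form, GTNNCC and GNAAC with 3 free bases (N) between them. A promoter was given for 50 of the 60 members, and 7 of them (14.0%) held the form, compared with 605 of 27457 genes (2.20%). The 7 were Tekt4, Cfap45, Ift22 and Spag6l, which were called higher in the hair layer, and Cfap20dc, Ift70a2 and Spag5, which were not tested for want of detection. The shorter X-box arm GTTGCC was found in 22 of 50 (44.0%) and in 13.1% of all genes, and it lies inside the longer match in 3 of the 7 genes. It was present in 4 of the 7 members called higher in the supporting layer and in 10 of the 24 with a promoter that were called higher in the hair layer, so the arm did not separate the directions. In all, 6 letter strings were searched. GTTNCC and GGNAAC with 2 free bases between them, a narrower case of the loose form, was in 1 of 50 (0.488% of all genes). The still narrower GTTNCC, ATG and GNAAC without a gap was in 0 (0.131%). The arm followed directly by ATG was in 2 (0.779%), and the forkhead string GTAAACA was in 3 (4.13%). These are letter matches and not binding sites.

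The 4 promoters with the loose form that belong to called members are printed 5′ to 3′ on the gene's strand, with the match in capitals. In Tekt4, Cfap45 and Spag6l the form reads on the opposite strand, so the capitals show its reverse complement, and in Ift22 it reads as printed. In Tekt4 and Cfap45 the match ends at the annotated start base, in Ift22 it spans that base, and in Spag6l it lies 64 to 51 bases before it.
Tekt4 promoter, chr10:14992034-14992333, plus strand: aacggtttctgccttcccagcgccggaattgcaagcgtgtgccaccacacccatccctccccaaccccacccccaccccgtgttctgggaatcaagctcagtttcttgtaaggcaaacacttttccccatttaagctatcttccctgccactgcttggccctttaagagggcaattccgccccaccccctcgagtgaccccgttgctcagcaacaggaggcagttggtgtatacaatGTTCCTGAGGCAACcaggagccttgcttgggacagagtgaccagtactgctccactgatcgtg
Cfap45 promoter, chr13:87521581-87521880, plus strand: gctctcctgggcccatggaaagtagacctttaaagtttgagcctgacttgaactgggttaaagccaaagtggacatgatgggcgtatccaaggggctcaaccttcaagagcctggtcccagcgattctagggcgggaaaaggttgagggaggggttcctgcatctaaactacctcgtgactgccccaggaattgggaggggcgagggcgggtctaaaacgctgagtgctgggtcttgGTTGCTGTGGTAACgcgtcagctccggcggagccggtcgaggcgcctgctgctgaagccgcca
Ift22 promoter, chr12:25405461-25405760, minus strand: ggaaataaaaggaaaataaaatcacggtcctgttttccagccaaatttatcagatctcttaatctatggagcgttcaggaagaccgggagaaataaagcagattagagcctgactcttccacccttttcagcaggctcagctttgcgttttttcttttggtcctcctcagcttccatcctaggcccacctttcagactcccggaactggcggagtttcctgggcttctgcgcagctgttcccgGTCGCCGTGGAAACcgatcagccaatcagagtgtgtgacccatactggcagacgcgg
Spag6l promoter, chr11:97677590-97677889, plus strand: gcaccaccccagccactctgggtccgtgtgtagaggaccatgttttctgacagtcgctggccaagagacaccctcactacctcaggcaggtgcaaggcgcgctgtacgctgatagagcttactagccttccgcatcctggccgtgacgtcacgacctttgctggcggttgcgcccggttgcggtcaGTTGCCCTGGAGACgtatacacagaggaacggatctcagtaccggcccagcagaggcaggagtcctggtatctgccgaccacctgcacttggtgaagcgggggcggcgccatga

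Tektins form filaments along the inside of the axonemal doublets. None of the 5 was called higher in the supporting layer and 4 (80%) were called higher in the hair layer. The shares over all tested genes were 28.2% and 37.2%. Tekt3 read 46.9 and 51.7 on the supporting layer arrays, against 416 and 417 on the hair layer arrays. Its change was -3.08 ± 0.09 (adjusted p = 0.00117). Tekt4, whose promoter is given above, had 161 and 143 in the supporting layer and 640 and 687 in the hair layer, a change of -2.13 ± 0.10 (adjusted p = 0.00163). For Tekt1 the values were 256 and 295 in the supporting layer and 771 and 725 in the hair layer (change -1.44 ± 0.11, adjusted p = 0.00299). The difference was smallest in Tekt2, with 626 and 661 in the supporting layer and 1090 and 1110 in the hair layer (change -0.77 ± 0.07, adjusted p = 0.00460). Tekt5 was detected on 1 array of each layer, at 37.6 and 38.4, and did not pass (change 0.32 ± 0.41).

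Radial spokes link the outer doublets to the central pair of a motile axoneme. The spoke head gene Rsph9 read 313 and 300 in the supporting layer and 892 and 818 in the hair layer (change -1.48 ± 0.09, adjusted p = 0.00203). Rsph10b was undetected in the supporting layer, at 5.83 and 8.13, and read 170 and 141 in the hair layer, at least 5.63-fold higher in that layer (adjusted p = 0.00169). Rsph1 had 584 and 546 in the supporting layer and 885 on hair layer array 2. Its spot on hair layer array 1 failed in manufacturing, so the change of -0.65 ± 0.11 (adjusted p = 0.0341) sets 2 arrays against 1. Ropn1l, which encodes a spoke protein with a domain that docks to A-kinase anchors, overlapped between the layers, at 60.4 and 68.6 in the supporting layer and 62.5 and 67.7 in the hair layer (change -0.02 ± 0.11). Of these 4 genes, 3 (75%) were called higher in the hair layer and none in the supporting layer. Over all tested genes the shares were 37.2% and 28.2%. The 3 called were head genes, and Rsph1 among them lost its call with the scanner software's own scaling. Ropn1l gave no difference beyond its error.

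Of the 9 tested genes of the Cfap group, 2 (22.2%) were higher in the supporting layer and 7 (77.8%) in the hair layer. These stand beside 28.2% and 37.2% of all tested genes. Cfap45, a protein inside the doublet lumen, read 195 and 169 in the supporting layer, against 945 and 1050 in the hair layer (change -2.46 ± 0.12, adjusted p = 0.00167). Cfap36, which binds the ciliary GTPase ARL3, read 250 and 237 in the supporting layer and 1000 and 1100 in the hair layer (change -2.10 ± 0.09, adjusted p = 0.00146). Cfap126, also called Flattop, helps position basal bodies in mouse multiciliated cells and hair cells. It read 232 and 216 in the supporting layer and 744 and 728 in the hair layer (change -1.72 ± 0.08, adjusted p = 0.00159). In each of these 3 genes the gap between layers was many times the gap between replicate arrays.

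Cfap77 had 2 tested probes that moved alike. The brighter gave 1460 and 1450 in the supporting layer and 2880 and 3390 in the hair layer (change -1.10 ± 0.12, adjusted p = 0.00536), and the other had a change of -1.5 ± 0.08. Smaller differences in the same direction were called for Cfap276 (-0.96 ± 0.14) and Cfap107 (-0.71 ± 0.09), both microtubule inner proteins, and for Cfap300 (-0.88 ± 0.12), which takes part in dynein arm assembly. Cfap20, a protein of the junction between the tubules of a doublet, went the other way, with 1040 and 999 in the supporting layer and 720 and 715 in the hair layer (change 0.50 ± 0.07, adjusted p = 0.0101). Its raw values were 815 and 739 in the supporting layer and 954 and 837 in the hair layer. Spef2, a component of the central apparatus, read 92.5 and 88.5 in the supporting layer and 56.1 and 51.9 in the hair layer (change 0.75 ± 0.08, adjusted p = 0.00632), while its raw values overlapped.

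**Figure D2:**
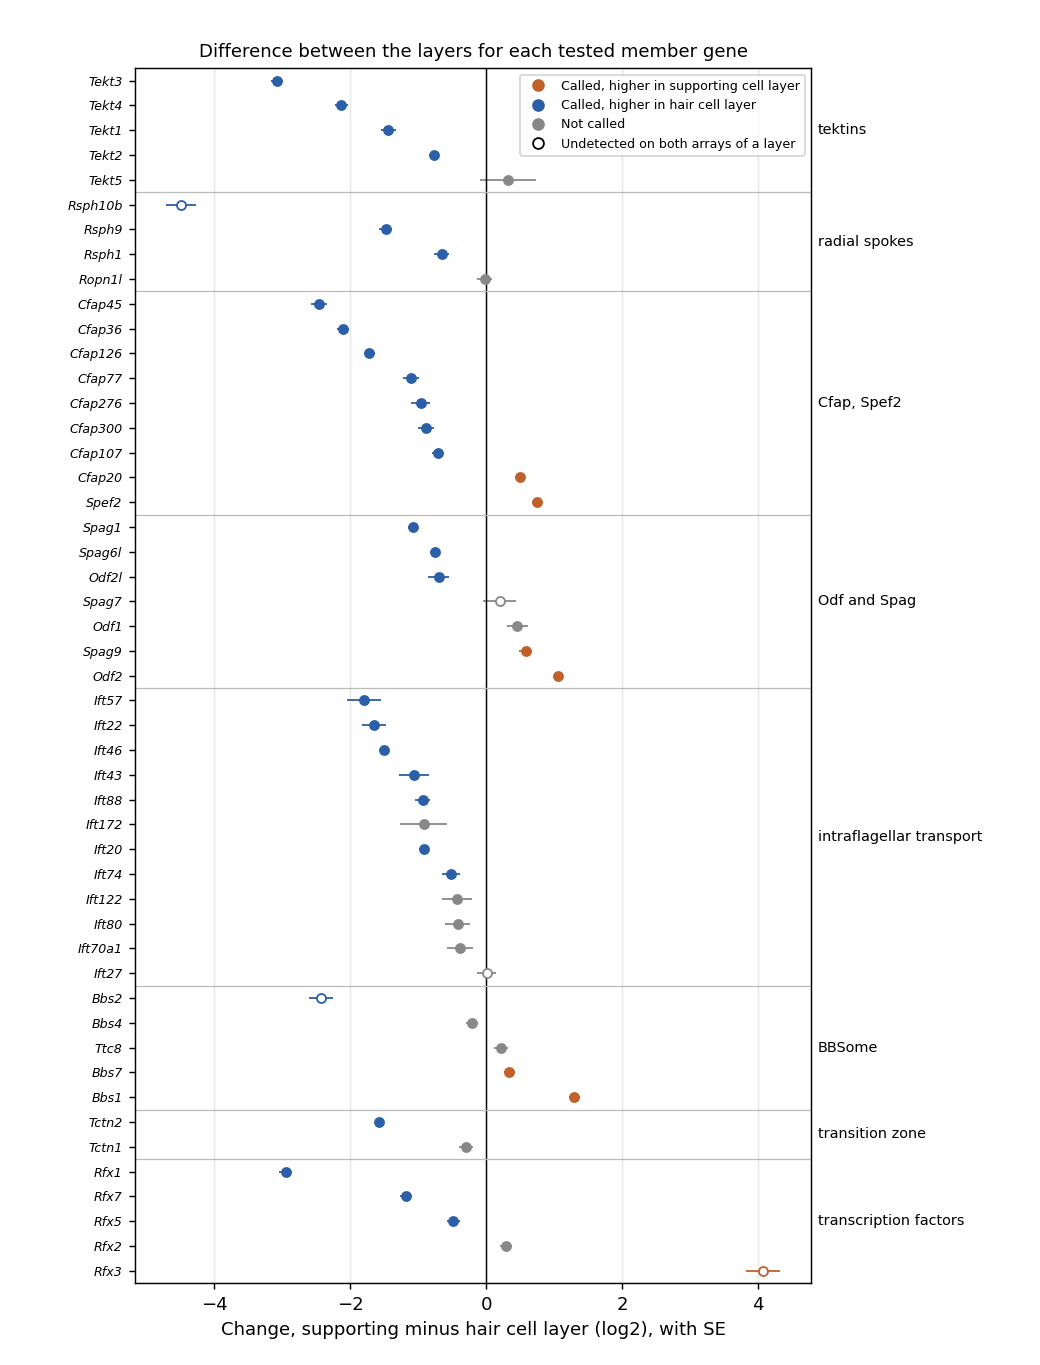
Change between the layers (supporting minus hair layer, log2, points with limma SE) for the 49 tested member genes, by family. Points left of 0 are higher in the hair layer (29 called) and points right of 0 are higher in the supporting layer (7 called). Over all tested genes 37.2% and 28.2% were called higher in the hair and supporting layers. White-filled points were undetected on both arrays of a layer, so their position is no measure of size.

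The Odf and Spag genes share names from sperm and sperm antigens more than a common function, and 2 of 7 tested (28.6%) were higher in the supporting layer and 3 (42.9%) higher in the hair layer, shares close to the 28.2% and 37.2% of all tested genes. Spag1, a chaperone for the assembly of dynein arms, read 84.8 and 85.9 in the supporting layer, against 181 and 181 in the hair layer (change -1.08 ± 0.07, adjusted p = 0.00221). Spag6l, a gene of the central apparatus whose promoter is printed above, read 469 and 476 in the supporting layer and 803 and 782 in the hair layer (change -0.75 ± 0.07, adjusted p = 0.00429). Odf2l had a change of -0.70 ± 0.16 (adjusted p = 0.0320). Odf2, needed for the appendages of basal bodies, was higher in the supporting layer, at 497 and 510, against 238 and 246 in the hair layer (change 1.06 ± 0.07, adjusted p = 0.00245). Its raw values ran the same way, 386 and 376 in the supporting layer and 315 and 284 in the hair layer. Without scaling, though, Odf2 lost its call. The other Odf2 probes were detected on no array and were not tested.

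Spag9, a scaffold for kinase signalling and motor transport and not an axonemal protein, had 2 probes of opposite sign. The brighter had a change of 0.58 ± 0.09 (adjusted p = 0.0119). The other was undetected in the supporting layer and at least 3.06-fold higher in the hair layer (adjusted p = 0.00115). No direction is given for this gene, although its brighter probe counts among the 7. Odf1, an outer dense fibre gene of the sperm tail (change 0.46 ± 0.16), and Spag7 (0.20 ± 0.24) did not pass the test.

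Among intraflagellar transport genes none of 12 tested was higher in the supporting layer, 7 (58.3%) were higher in the hair layer and 5 did not pass. Over all tested genes 28.2% and 37.2% were called higher in the supporting and hair layers. The Ift46 values, from a subunit of the anterograde complex IFT-B, were 43.2 and 42.8 in the supporting layer and 124 and 119 in the hair layer (change -1.5 ± 0.07, adjusted p = 0.00162). The Rab-like GTPase gene Ift22 read 99.0 and 129 in the supporting layer and 340 and 370 in the hair layer (change -1.65 ± 0.17, adjusted p = 0.00526), and its second probe moved the same way (-1.72 ± 0.34), undetected in the supporting layer. Ift20, which also works at the Golgi, read 431 and 448 in the supporting layer, against 810 and 846 in the hair layer (change -0.91 ± 0.07, adjusted p = 0.00340). In these 3 genes the lowest hair layer value lay well above the highest supporting layer value.

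Ift88, whose loss abolishes cilia in mice, read 69.1 and 59.4 in the supporting layer and 125 and 120 in the hair layer (change -0.93 ± 0.11, adjusted p = 0.00694). Ift57 was detected on 1 supporting layer array, at 34.8, and on both hair layer arrays, at 90.7 and 109 (change -1.80 ± 0.25, adjusted p = 0.0103). Ift74, a tubulin-binding subunit, differed less (-0.52 ± 0.13, adjusted p = 0.0404). Of the retrograde complex IFT-A, Ift43 was called (-1.06 ± 0.22, adjusted p = 0.0243) and Ift122 was not (-0.43 ± 0.22, adjusted p = 0.169), each detected on 1 supporting layer array. Ift172 (-0.92 ± 0.34), Ift80 (-0.42 ± 0.18) and Ift70a1 (-0.39 ± 0.19) did not pass. For each, both hair layer arrays lay above both supporting layer arrays, as they did for 48.9% of all tested genes. Ift27, a small GTPase that joins the complex to the BBSome, read 34.4 and 34.5 in the supporting layer, undetected, and 38.4 and 30.6 in the hair layer, detected (change 0.01 ± 0.14). The lowest signal that was detected was 26.6 and 28.3 on the supporting layer arrays and 13.9 and 18.5 on the hair layer arrays, and undetected spots can read above it, so detection of Ift27 in the hair layer alone shows no difference.

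The BBSome subunits did not move together. Bbs1 was higher in the supporting layer, at 755 and 776, against 302 and 320 in the hair layer (change 1.30 ± 0.08, adjusted p = 0.00203). A dim second probe of Bbs1 pointed the other way without passing (-2.47 ± 1.46). It was undetected in the supporting layer, with a lower limit of 1.21-fold, so the size of its change is not measured. The mean over both probes, -0.58, rests in part on that probe. Bbs2 was undetected in the supporting layer at its brighter probe, at 24.3 and 31.5, and read 159 and 140 in the hair layer, at least 5.14-fold higher in that layer (adjusted p = 0.00277); its second probe did not pass (-1.16 ± 0.40). Bbs7 had a small change of 0.34 ± 0.08 (adjusted p = 0.0374), while Bbs4 (-0.21 ± 0.09) and Ttc8 (0.22 ± 0.10) did not pass. Of the transition zone pair, Tctn2 read 388 and 383 in the supporting layer, against 1160 and 1130 in the hair layer (change -1.57 ± 0.07, adjusted p = 0.00152). For Tctn1 the change of -0.30 ± 0.10 did not pass (adjusted p = 0.0740).

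**Figure D3:**
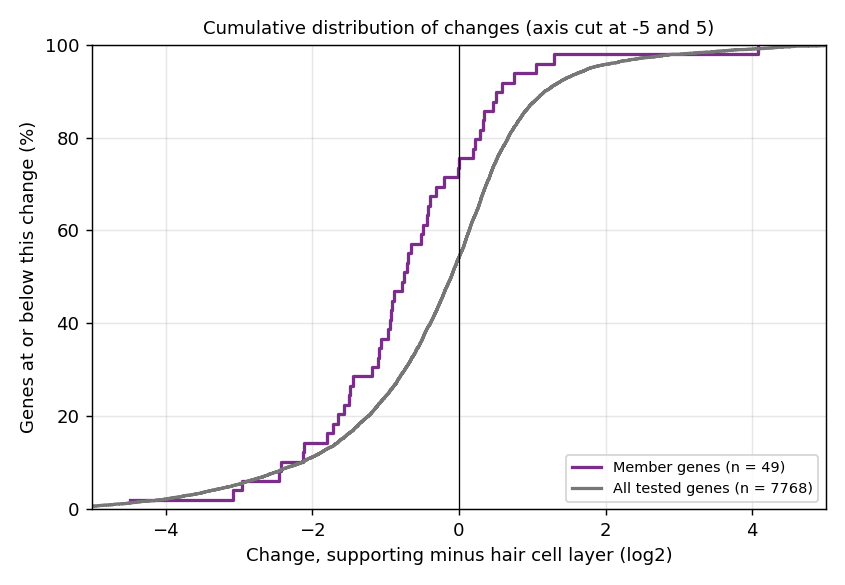
Cumulative share of genes (vertical axis, %) at or below each change between the layers (horizontal axis, supporting minus hair layer, log2) for the 49 tested member genes and for all 7768 tested genes. The members' curve lies to the left over its middle part, with a median of -0.75 against -0.10 for all genes.

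The 11 members that were not tested were Ak7, Cfap141, Cfap20dc, Foxj1, Ift52, Ift70a2, Ift70b, Ift81, Spag11a, Spag4 and Spag5. Ift81, the partner of Ift74, was detected on hair layer array 1 alone: it read 13.4 and 10.9 in the supporting layer and 25.9 and 17.3 in the hair layer. Spag5, a protein of the mitotic spindle, was likewise detected only on hair layer array 1, and the other 9 had no detected spot on any array. One of the Cfap141 spots was left out as contaminated.

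Other genes of the cilium, from lists written with the earlier results known and with the members left out, had these calls: among the 85 tested, 14 were higher in the supporting layer and 46 (54.1%) in the hair layer, beside 28.2% and 37.2% of all tested genes. Their median change was -0.63, beside -0.10 over all tested genes. The lists below are small, and their counts are read against the same shares. Among motors of intraflagellar transport, 7 of 11 were higher in the hair layer. The retrograde dynein heavy chain Dync2h1 read 77.8 and 64.2 in the supporting layer, against 414 and 384 in the hair layer (change -2.49 ± 0.13). The kinesin-II subunits split: Kif3b had a change of -1.01 ± 0.08 and Kif3a of 1.55 ± 0.09, and their adaptor Kifap3 did not pass (-0.03 ± 0.08). Transport proteins that do not carry the Ift name were also higher in the hair layer, with Cluap1 at -1.34 ± 0.08 and Rabl2 at -0.92 ± 0.13.

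Among genes of dynein arms and their assembly, 3 of 12 tested were higher in the supporting layer and 7 higher in the hair layer. The assembly factor Dnaaf1 read 120 and 105 in the supporting layer, against 597 and 599 in the hair layer (change -2.41 ± 0.10), and Dynlt5 had a change of -2.29 ± 0.10. Odad4, a docking factor of the outer arm, went the other way (0.93 ± 0.12). Dnai4 was undetected in the hair layer and at least 4.26-fold higher in the supporting layer, but its arrays there were far apart, at 32.9 and 142. Of the other axonemal genes none of 14 was higher in the supporting layer and 8 were higher in the hair layer. Kif27 was undetected in the supporting layer and at least 34.3-fold higher in the hair layer, and the microtubule inner protein gene Pierce1 had a change of -2.86 ± 0.17.

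At the ciliary base the picture was mixed. Of the transition zone and nephronophthisis list, 3 of 16 were higher in the supporting layer, Tmem237 (1.86 ± 0.09) and Tmem67 (0.68 ± 0.18) among them, and 8 were higher in the hair layer, with Tmem138 at least 4.11-fold and Rpgrip1l at least 1.36-fold. Of the basal body and ciliogenesis list, 4 of 13 were higher in the supporting layer, led by the distal appendage genes Cep89 (2.41 ± 0.18) and Cep83 (1.69 ± 0.10). In that list 7 were higher in the hair layer, among them Ccp110 (-2.95 ± 0.20), a suppressor of cilium growth, and Rab8a (at least 2.62-fold). Ccp110 was detected on 1 supporting layer array, at 33.5, and undetected on the other, at 24. Of the signalling and cargo list, 2 of 10 were higher in the supporting layer and 4 in the hair layer. The first 2 were the polycystin genes Pkd1 (0.50 ± 0.07) and Pkd2 (0.28 ± 0.08). The 4 in the hair layer included Pde6d (at least 4.5-fold) and Unc119b (at least 2.82-fold), both undetected in the supporting layer. The regulators of multiciliated cells gave 1 call in each direction among 5 tested, with Deup1, a gene of the deuterosome, at 0.43 ± 0.08 and Trrap at -1.64 ± 0.11. Trrap was detected on 1 supporting layer array. Shares near 28.2% in the supporting layer and 37.2% in the hair layer are those of the array as a whole.

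**Figure D4:**
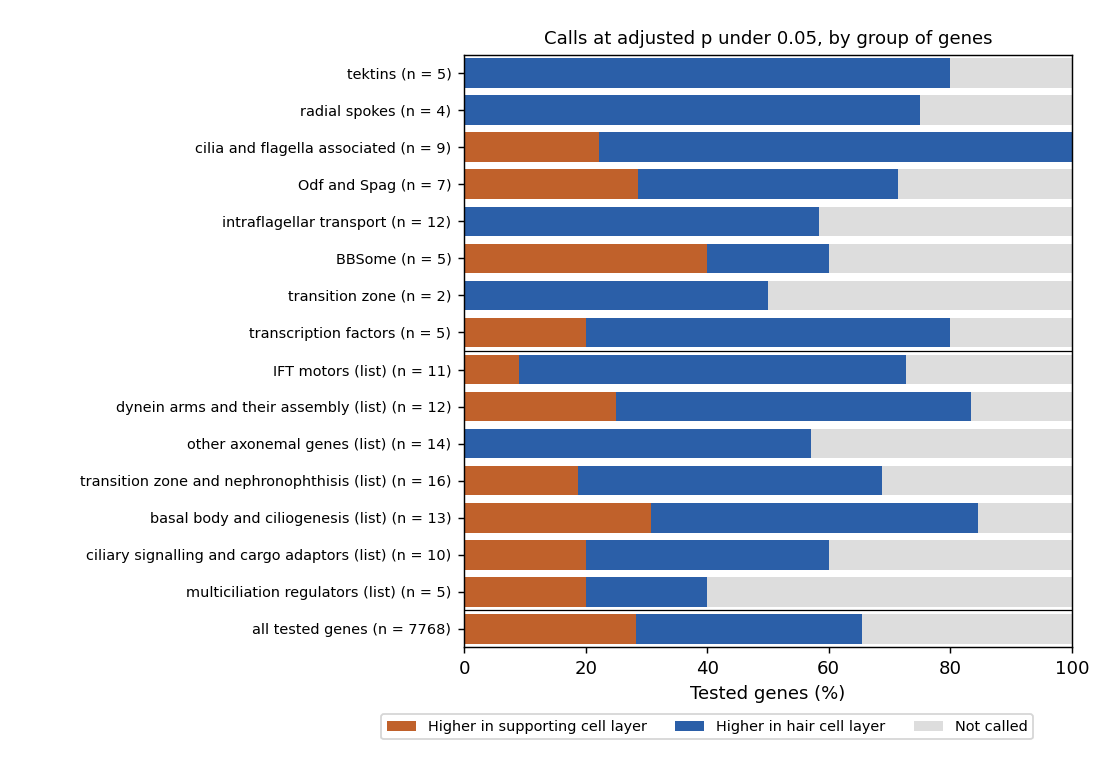
Share of tested genes (horizontal axis, %) called higher in the supporting layer, called higher in the hair layer, or not called, for the 8 member families (top), the other ciliary lists (middle) and all 7768 tested genes (bottom), with the number tested beside each name. In the tektin, radial spoke, intraflagellar transport and transition zone families and the list of other axonemal genes, no gene was called higher in the supporting layer.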

How the data were processed

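Polyadenylated RNA from laser-captured tissue was amplified linearly into labelled cRNA, per the labels' protocols, and 4 slides were quantified with CodeLink Expression Analysis, per the file headers. The deposited raw intensity is corrected for local background, as its values below 0 show; the deposited normalized intensity is the same value over the median of its slide. Probes were named from the platform annotation, matched by value within 1e-06 to the series table (35125 of 35125 rows on 3 arrays; the shifted column of supporting layer replicate 2 was not used), with symbols updated to GRCr8. Of 33849 gene probes, 16762 had no gene named, 165 matched several genes and 7 conflicted.

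Contaminated, irregular and failed spots were left out (151 and 241 in the supporting layer, 637 and 69 in the hair layer). Raw intensities were quantile-normalized, raised to a floor of 0.1 of the median, and taken to log2 in R 4.3.3. Probes detected on at least 2 of 4 arrays were fitted with limma 3.58.1 (lmFit, eBayes, two-sided, no block) and adjusted by Benjamini-Hochberg over all 16483 tested probes. Steps were tested on simulated data. The brightest probe stands for a gene. Lower limits of fold compare the brighter layer's mean with the lowest detected signal, or the probe's own where higher, on each array of the undetected layer, and are approximate, since undetected spots can read above that signal. Every tested member is named, with array values mainly for called members. The members, lists, motif strings and examples were chosen with earlier results of these data known. Of the 15 alternatives, the raw intensity without normalization was added after the data were seen.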

Additional observations from a re-analysis of the deposited data

How the results depend on the processing

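Under the scanner software's own scaling 2659 genes were called in place of 5081, and 3 and 15 members in place of 7 and 29 higher in the supporting and hair layers, with a median change of -0.68; the median over all genes was 0.02 there and -0.10 with quantile normalization. Without a filter on dim probes 2678 genes were called, 3 members were higher in the supporting layer and 20 in the hair layer, and the median was -0.58. With raw intensities and no normalization, an alternative chosen after seeing the data, 2 members were called higher in the supporting layer and 37 in the hair layer. The median was then -1.46, against -0.79 over all genes. Of the calls over all tested genes, 86.6% lay in the hair layer then, against 56.9% with quantile normalization. Of the members' calls, 94.9% lay there, against 80.6%. Leaving out 1 array gave 3145 to 4453 called genes, 4 to 6 members higher in the supporting layer, 21 to 27 higher in the hair layer and a median of -0.78 to -0.73. With the replicate number as a block, 3874 genes were called, 6 members higher in the supporting layer and 28 higher in the hair layer. The numbers are not known to pair the arrays (r = -0.0282 between the layers' replicate differences), so the samples share only a number. Cyclic loess, both other floors, kept spots, the mean over probes, the intensity trend and the filter for all 4 arrays kept both member counts and the count over all genes within 1.5 times. Reversed changes were those of Bbs1 (-0.58) and Spag9 (-1.41) with the mean over probes. With raw intensities they were Bbs7 (-0.31), Cfap20 (-0.20), Spag9 (-0.08), Ift27 (-0.73), Odf1 (-0.27), Rfx2 (-0.37), Spag7 (-0.71), Tekt5 (-0.38) and Ttc8 (-0.43). Ropn1l (0.15) reversed with the scanner scaling and Ift27 (-0.03) with cyclic loess. Spag7 with the highest floor and Ropn1l with kept spots came to 0 as rounded, so no direction is read from them. Leaving out 1 array gave both signs for Spag7 (-0.06 to 0.46), Ift27 (-0.16 to 0.17), Ropn1l (-0.11 to 0.08) and Tekt5 (-0.18 to 0.83). For the changes with the mean over probes, with raw intensities and with fewer arrays the construction is known. For the others the cause was not tested. Signal near background limits the dim genes, such as Ift27, Spag7 and Tekt5.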
